A study of Mus musculus with 34 samples.

Results

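The genes described here were Txnip, its alpha-arrestin relatives Arrdc3 and Arrdc4, the glucose-sensing transcription factors Mlxip and Mlxipl, and the glucose transporters Slc2a1, Slc2a3, Slc2a4 and Slc2a8. They were found by symbol in the count table and make up 9 of its 25965 entries. Txnip was selected on its levels in these same data, which were higher after leptin and after 4 weeks of high fat diet in earlier results, so its levels in those groups are given as a description, with no test. The libraries came from cumulus cells of superovulated C57BL/6J female mice that entered the protocols at 8 weeks of age. In the diet protocol, mice ate chow diet (CD, 11% of energy from fat) or high fat diet (HFD, 58%) for 4 weeks (5 CD and 5 HFD libraries) or 16 weeks (6 CD and 7 HFD libraries), and 3 further libraries came from mice labelled low weight gainers after 16 weeks of HFD. In the leptin protocol, mice were injected intraperitoneally for 16 days with saline (16 C, 3 libraries) or with 100 μg of recombinant mouse leptin per day (16 L, 5 libraries). Each library was made from about 50 cells, which the labels place in a single cumulus-oocyte complex and the study's methods assign to a single animal. The p-values thus measure the spread between libraries. In that spread, differences between mice, between complexes and in library preparation cannot be told apart.

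Txnip encodes thioredoxin-interacting protein, an alpha-arrestin that binds thioredoxin and brings glucose transporters in from the cell surface, and it is among the most glucose-responsive transcripts known. Mlxip (MondoA) and Mlxipl (ChREBP) are transcription factors that respond to glucose phosphates and bind, together with Mlx, to carbohydrate response elements upstream of genes such as Txnip and Arrdc4. Cumulus cells surround the oocyte, which takes up little glucose itself and depends on pyruvate and lactate made by these cells.

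The stretches of DNA upstream of Txnip, Arrdc4 and Mlxipl are shown because these 3 were the members whose RefSeq promoter windows (GRCm38.p6, 250 bases before to 50 after the start) held a searched motif. Capitals mark the motif, and each sequence is written 5′ to 3′ on the gene's own strand. The Txnip stretch is chr3:96557707-96557956 on the + strand, with 2 copies of CNCGNG separated by 5 bases that begin 85 bases before the start. The Arrdc4 stretch is chr7:68749399-68749458 on the - strand, with the E-box CACGTG beginning 193 bases before the start. The Mlxipl stretch is chr5:135089765-135089824 on the + strand, with CACGTG beginning 98 bases before the upstream of its annotated starts.
Txnip: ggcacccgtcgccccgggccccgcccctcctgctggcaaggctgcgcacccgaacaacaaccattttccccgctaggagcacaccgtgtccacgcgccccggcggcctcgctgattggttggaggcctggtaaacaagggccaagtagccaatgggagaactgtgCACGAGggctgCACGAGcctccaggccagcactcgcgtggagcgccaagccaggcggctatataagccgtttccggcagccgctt
Arrdc4: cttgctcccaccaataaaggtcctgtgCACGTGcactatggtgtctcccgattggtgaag
Mlxipl: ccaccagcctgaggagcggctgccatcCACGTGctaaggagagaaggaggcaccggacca

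The table held 10 promoter windows for 7 of the 9 members: Slc2a3 and Slc2a4 had none. Both motifs read the same on the other strand, and a paired form can hold an E-box as one of its copies. Among all 32851 promoter windows of 300 bases, CACGTG occurred in 2349 (7.15%) and the paired form in 456 (1.39%). The remaining member windows held neither, which says only that these letters are not there.

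Total counts per library ran from 1104611 to 13207018, without molecular identifiers, so count floors cover counting error only. Levels are CPM, a gene's reads per 1000000 reads of its library, after trimmed-mean (TMM) scaling over all 34 libraries. The TMM factors were 0.593 to 0.686 in 16 C and 0.901 to 1.38 in 16 L. Within 16-week CD, replicates 1 and 2 had factors of 1.46 and 1.40, and the other 4 libraries 0.703 to 0.969. All 12 granulosa and cumulus markers were detected in every group, except for Amh in the low weight gainers. Their summed level was 2741 to 3569 CPM in 16 C and 728 to 1511 CPM in 16 L. The library 16 L replicate 18 stood apart. Its 6 oviduct epithelium markers summed to 33989 CPM, almost all from the oviduct glycoprotein gene Ovgp1 (33395 CPM), against 8.66 to 1643 CPM in the other 16 L libraries and 28.5 to 119 CPM in 16 C. Its 4 red blood cell markers in the table summed to 11211 CPM, and its 7 theca and stroma markers to 1497 CPM. Replicate 21 of 16 L had a red blood cell sum of 1869 CPM, where 16 C ran from 1.61 to 32.6 CPM. Macrophage markers summed to 1266 and 1436 CPM in 16 L replicates 20 and 23, against 118 to 831 CPM in 16 C. Fits without replicate 18 thus still held transcripts of other cells. In 4-week HFD replicate 5, the 10 oocyte markers summed to 374 CPM, whereas the highest sum in 4-week CD was 6.95 CPM. In this bulk RNA, fewer cells of a type and less RNA per cell cannot be told apart.

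Per kilobase of exon and over all 34 libraries, the most abundant member was Slc2a1 (29.3 CPM per kb), followed by Arrdc3 (18.2), Txnip (16.4) and Arrdc4 (10.7). That order differed between groups: in 4-week HFD the mean of Txnip (32.2 CPM per kb) was above those of Arrdc3 (25.0) and Slc2a1 (23.9), and in 16 L Txnip (17.6) and Arrdc3 (13.4) were above Slc2a1 (9.74). Over all libraries Mlxip lay at 3.77 CPM per kb and Slc2a8 at 1.62. Slc2a3 (0.571) and Mlxipl (0.385) had 3 or fewer reads in 11 libraries each. Slc2a4, the insulin-responsive transporter GLUT4 of muscle and fat, had no read in 30 of the 34 libraries and at most 3 reads in any. A floor of 3 reads per library corresponds to 0.200 to 2.95 CPM at these depths, so Slc2a4 was not detectable above that level.

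Txnip (chromosome 3, 96557957 to 96561883, + strand, GRCm38) had reads in every library, from 9.11 to 159.6 CPM. In 16 C its level was 19.6, 19.9 and 19.8 CPM in replicates 1, 2 and 3. In 16 L it was 121, 83.8, 16.8, 20.6 and 33.3 CPM in replicates 18, 19, 20, 21 and 23. The mean therefore rested on replicates 18 and 19, and replicate 20 was below all 3 saline libraries. In RPM (reads per 1000000 total reads, without TMM scaling), where the saline libraries ran from 11.8 to 13.4, all 5 leptin libraries were above them (23.2 to 106). On that scale the median gene was also higher in 16 L, by 0.85 as log2(RPM + 1), and the share of all genes without overlap was not computed. Group means were 19.8 ± 0.195 CPM (SD, n = 3) in 16 C and 55.0 ± 45.4 CPM (SD, n = 5) in 16 L, with a fitted log2 fold change of 1.63 (SE 0.67). The median gene moved by 0.27 in this fit and by 1.08 when libraries were scaled by their totals alone, and Txnip lay 1.35 and 1.23 above that median. Without replicate 18, the library richest in oviduct and red blood cell transcripts, the log2 fold change of Txnip was 1.04. Replicate 19, the next highest for Txnip, had the lowest oviduct sum (8.66 CPM) and the lowest red blood cell sum (2.95 CPM) of the 16 L libraries.

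After 4 weeks, Txnip was at 43.5, 9.11, 19.5, 35.9 and 50.7 CPM in CD replicates 1, 2, 7, 8 and 11. The HFD libraries had 159.6, 106, 144, 48.6 and 44.9 CPM in replicates 3, 4, 5, 13 and 14. Replicates 3, 4 and 5 were thus above every CD library, while replicates 13 and 14 lay inside the CD range (over all genes tested, groups failed to overlap for 6.67%). The means were 31.7 ± 17.1 CPM (SD, n = 5) in CD and 101 ± 53.0 CPM (SD, n = 5) in HFD, a log2 fold change of 1.58 (SE 0.42). Leaving out any 1 of the 10 libraries kept this value between 1.35 and 1.78. Without HFD replicate 5, the library with oocyte transcripts, it was 1.43.

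At 16 weeks, where the selection of Txnip had not used its values, the level ran from 13.2 to 57.7 CPM in CD (median 32.5, n = 6) and from 26.7 to 119 CPM in HFD (median 46.2, n = 7). The groups overlapped, as they did for all but 1.09% of the genes tested, although 3 of the 7 HFD libraries were above all CD libraries. The log2 fold change of 0.59 (SE 0.40) did not pass the test (edgeR adjusted p = 0.342). CD replicates 1 and 2 had the highest Txnip of their group, at 55.2 and 57.7 CPM, and without both the log2 fold change was 1.20 (SE 0.43, edgeR adjusted p = 0.427). The difference between the diet effects at 16 and 4 weeks, which shares the 4-week libraries with the selection, was -0.91 (SE 0.61) on the log2 scale. The low weight gainers had 55.8, 31.8 and 23.7 CPM in replicates 21, 22 and 23, within the CD range. Their log2 fold change was -0.69 (SE 0.46, edgeR adjusted p = 0.299) against 16-week HFD and -0.06 (SE 0.46, edgeR adjusted p = 0.976) against 16-week CD.

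In the order of group means, Txnip was highest in 4-week HFD (101 CPM), followed by 16-week HFD (59.7 ± 34.3 CPM), 16 L (55.0 CPM), low weight gainers (37.1 ± 16.7 CPM), 16-week CD (36.2 ± 17.6 CPM), 4-week CD (31.7 CPM) and 16 C (19.8 CPM). Each neighbour in that order lay within the SD of the group before it. The highest group mean was 5.09 times the lowest.

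**Figure D1:**
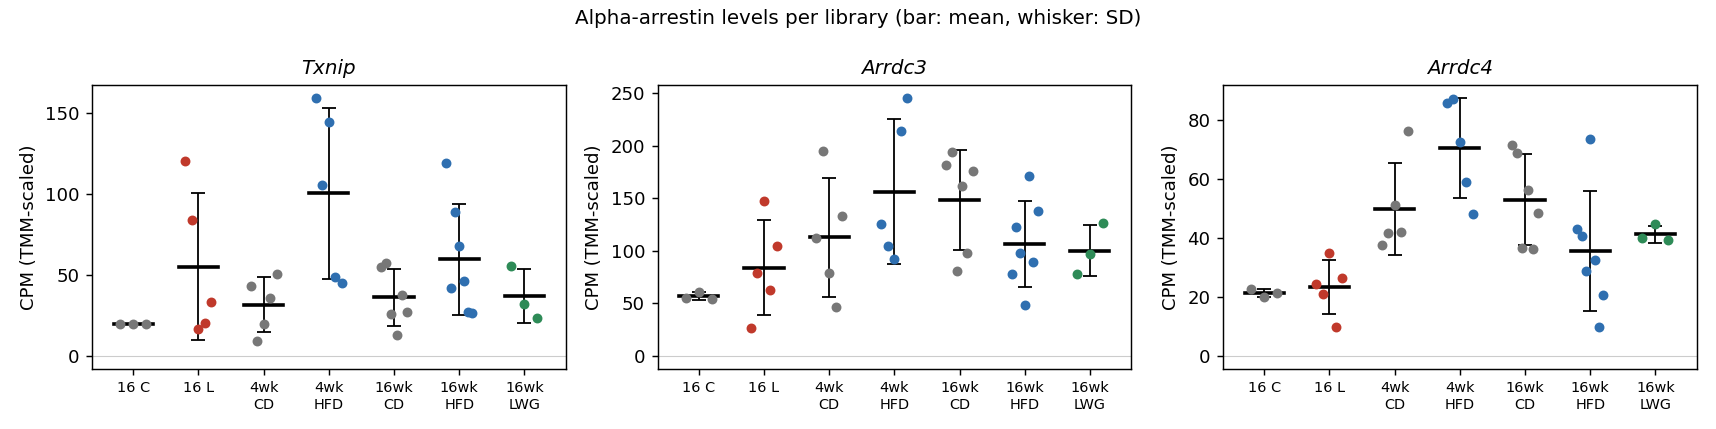
Levels of Txnip, Arrdc3 and Arrdc4 in CPM after TMM scaling (y axis) for the 34 libraries by group (x axis; LWG, low weight gainers), 1 point per library, bars for the mean and whiskers for the SD. Txnip reached 121 and 83.8 CPM in 2 of the 5 leptin libraries and 106 to 159.6 CPM in 3 of the 5 libraries of 4-week HFD, where the highest 2 values of Arrdc3 (214 and 246 CPM) belong to the 2 libraries with low Txnip.

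Across the 34 libraries, the gene whose level followed Txnip most closely was Gm15441, an antisense transcript on the opposite strand of the same locus (chromosome 3, 96555765 to 96566801). Spearman's rho was 0.77 over log2(CPM + 1), with Pearson's r of 0.77, which was 0.70 without the 2 libraries of most extreme Txnip. With group means removed, rho was 0.80. The exons of Gm15441 and Txnip share 606 bases in the GENCODE annotation. The library method does not mark strand, so reads from the shared bases cannot be told apart, and both levels include that ambiguity. Gm15441 was much less abundant, at 23.4, 15.8, 21.8, 8.84 and 5.66 CPM in 4-week HFD replicates 3, 4, 5, 13 and 14, against 0 to 5.28 CPM in 4-week CD. Its 5 HFD libraries fell into the same order as for Txnip. In 16 L, replicates 18 and 19 again had the highest levels, at 8.51 and 10.5 CPM. The next genes in likeness among the 13018 compared were Mctp2 (rho 0.70), Cryl1 (0.69), Bcar3 (0.67) and Map2k5 (0.67). With group means removed, rho was 0.65 for Mctp2, 0.81 for Cryl1, 0.73 for Bcar3 and 0.68 for Map2k5. Of the members, Arrdc4 was the most like Txnip (rho 0.40) and ranked 577th, while Arrdc3 had a rho of -0.05 that became -0.43 with group means removed. All points share library depth and scaling, so these values are descriptions.

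**Figure D2:**
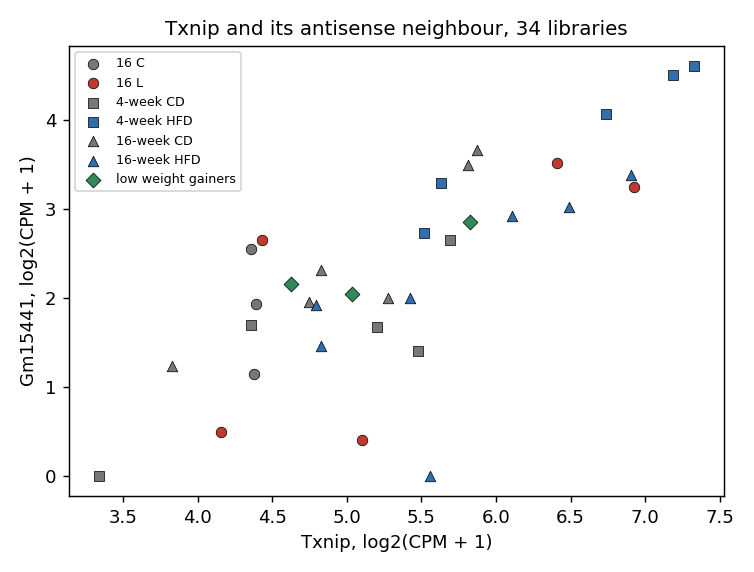
Gm15441 (y axis) against Txnip (x axis), both as log2(CPM + 1), for the 34 libraries, with colour and marker for the group. The points rise together (Spearman's rho 0.77), with 4-week HFD replicates 3, 4 and 5 at the upper right.

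Arrdc3 (chromosome 13, 80883384 to 80896035, + strand) encodes an alpha-arrestin linked to receptor trafficking and, in mice, to body mass. It did not pass the test in any of the 6 comparisons. In 4-week HFD its level was 125, 104, 92.1, 214 and 246 CPM in replicates 3, 4, 5, 13 and 14, so the 2 libraries with the lowest Txnip had the highest Arrdc3. In 4-week CD it was 112, 195, 78.5, 46.1 and 133 CPM in replicates 1, 2, 7, 8 and 11, and replicate 2, lowest for Txnip, was again the highest. Its diet effect at 4 weeks was 0.46 on the log2 scale (SE 0.38, edgeR adjusted p = 0.458). In 16 L, replicate 18 had the lowest Arrdc3 of all libraries (26.5 CPM) beside the highest Txnip of its group. Other libraries went the other way. In 4-week CD, replicate 11 was highest for Txnip (50.7 CPM) and came next after replicate 2 for Arrdc3. In 16-week CD, replicates 1 and 2 had both the highest Txnip (55.2 and 57.7 CPM) and the highest Arrdc3 (181 and 194 CPM). The other group means for Arrdc3 were 56.8 ± 3.61 CPM (SD, n = 3) in 16 C, 84.1 ± 45.2 (SD, n = 5) in 16 L, 149 ± 47.3 (SD, n = 6) in 16-week CD, 106 ± 40.9 (SD, n = 7) in 16-week HFD and 100.0 ± 24.5 (SD, n = 3) in low weight gainers.

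Arrdc4 (chromosome 7, 68737045 to 68749241, - strand), an alpha-arrestin that like Txnip lowers glucose uptake when overexpressed, also passed no test. In 4-week HFD it was at 85.7, 87.2, 72.5, 58.8 and 48.0 CPM in replicates 3, 4, 5, 13 and 14. In 4-week CD it was at 37.5, 41.6, 51.1, 42.1 and 76.1 CPM in replicates 1, 2, 7, 8 and 11. The 3 HFD libraries with high Txnip thus also had the higher Arrdc4, but CD replicate 11 exceeded 1 of them. Its fitted diet effect was 0.45 on the log2 scale (SE 0.24, edgeR adjusted p = 0.248) at 4 weeks and -0.69 (SE 0.36, edgeR adjusted p = 0.229) at 16 weeks. The difference between these diet effects was -1.07 (SE 0.46, edgeR adjusted p = 0.156). In the leptin comparison Arrdc4 moved with the median gene (log2 fold change 0.28, SE 0.42).

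Mlxip (chromosome 5, 123394798 to 123457932, + strand) encodes MondoA, which is held at the outer mitochondrial membrane and moves to the nucleus when glucose 6-phosphate rises. At 16 weeks it ran from 21.2 to 54.6 CPM in CD (median 29.5, n = 6) and from 8.17 to 23.3 CPM in HFD (median 16.4, n = 7). All but 1 of the 7 HFD libraries were below every CD library. The log2 fold change was -1.19 (SE 0.30), and it missed the threshold of 0.05 after adjustment over 10861 genes (edgeR adjusted p = 0.0654), in a comparison where 3 genes (0.0276%) were called in all. DESeq2 gave -1.16 with an adjusted p of 0.0113 and called 1056 genes. CD replicates 1 and 2 were the highest of their group, at 48.3 and 54.6 CPM, and without both the log2 fold change was -0.64 (SE 0.26, edgeR adjusted p = 0.474).

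The low weight gainers had 18.9, 21.2 and 17.3 CPM of Mlxip in replicates 21, 22 and 23. The highest of these (21.19 CPM) was just below the lowest 16-week CD library (21.23 CPM) and all were inside the HFD range. Groups failed to overlap for 7.85% of all genes tested against CD, and in RPM these 2 groups overlapped for Mlxip. On the log2 scale the difference was -0.94 (SE 0.39, edgeR adjusted p = 0.413) against CD and 0.22 (SE 0.28, edgeR adjusted p = 0.601) against HFD. At 4 weeks, the Mlxip means were 48.3 ± 15.8 CPM (SD, n = 5) in CD and 49.0 ± 15.7 CPM (SD, n = 5) in HFD, a log2 fold change of -0.06 (SE 0.28). In the leptin comparison Mlxip was at 21.998, 16.5 and 14.9 CPM in 16 C replicates 1, 2 and 3, and at 11.2, 43.4, 30.0, 25.9 and 37.5 CPM in 16 L replicates 18, 19, 20, 21 and 23. All leptin libraries but replicate 18 were above all saline libraries. Leptin against saline gave a log2 fold change of 0.89 (SE 0.46, edgeR adjusted p = 0.208), and 1.04 without replicate 18 (edgeR adjusted p = 0.0186). Exons of Mlxip share 267 bases with the antisense gene Gm15747.

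Mlxipl (chromosome 5, 135106891 to 135138382, + strand) encodes ChREBP, the counterpart of MondoA that is abundant in liver and fat. It was scarce in cumulus cells, at 0 to 9.51 CPM. At 4 weeks it was at 3.03, 2.28, 6.32, 9.51 and 3.57 CPM in CD replicates 1, 2, 7, 8 and 11, and at 1.92, 3.85, 3.50, 2.17 and 1.00 CPM in HFD replicates 3, 4, 5, 13 and 14. The groups overlapped, and the log2 fold change of -1.11 (SE 0.47) did not pass the test (edgeR adjusted p = 0.163). The filter asked for 5 libraries at 2.34 RPM or more, and HFD replicates 3 and 14 were below it (2.25 and 1.19 RPM). Mlxipl thus passed the filter only through the CD libraries, where it was higher, and its log2 fold change is a description. At 16 weeks the group totals were 42 reads in CD, 20 in HFD and 7 in low weight gainers, and the gene was below the filter on low counts in those comparisons. In the leptin comparison the means were 2.19 ± 1.27 CPM (SD, n = 3) in 16 C and 2.55 ± 1.67 CPM (SD, n = 5) in 16 L.

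Slc2a1 (chromosome 4, 119108711 to 119137330, + strand) encodes GLUT1, the widespread basal glucose transporter, and was the transporter with most reads. In 16 C its level was 61.9, 194 and 48.8 CPM in replicates 1, 2 and 3. In 16 L it was 44.6, 38.7, 28.4, 23.2 and 35.9 CPM in replicates 18, 19, 20, 21 and 23. After TMM scaling all 5 leptin libraries were below all 3 saline libraries, and groups failed to overlap for 23.4% of all genes tested. In RPM the groups overlapped, at 32.1 to 115 in 16 C and 31.7 to 49.5 in 16 L. The log2 fold change was -1.44 (SE 0.47), and -0.59 with scaling by totals, against a median gene at 0.27 and 1.08, and it did not pass the test (edgeR adjusted p = 0.0789). The value depended on 16 C replicate 2: without that library it was -0.54 (edgeR adjusted p = 0.371). DESeq2 gave -1.46 with an adjusted p of 0.0320, and without 16 L replicate 18 the value was -1.65 (edgeR adjusted p = 0.0192).

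In low weight gainers Slc2a1 was at 309.6, 198 and 225 CPM in replicates 21, 22 and 23. The 16-week HFD libraries ran from 42.0 to 184 CPM (median 88.9, n = 7), so the groups did not overlap, as for 20.6% of all genes tested. Slc2a1 rose, with a log2 fold change of 1.25 (SE 0.35, edgeR adjusted p = 0.0229). Of the 9 members 6 passed the filter on low counts, and 2 of these were under the threshold, Slc2a1 and Slc2a8, in a comparison that called 20.7% of all genes. Slc2a1 passed the filter on the HFD libraries alone, whereas Slc2a8 did not. The call was lost without low weight gainer replicate 21 (log2 fold change 1.06, edgeR adjusted p = 0.108) or replicate 23 (1.30, edgeR adjusted p = 0.0832). Neutrophil transcripts were also higher in replicates 21 and 23, the libraries with most Slc2a1: the 7 neutrophil markers summed to 76.1, 8.73 and 103 CPM in replicates 21, 22 and 23, and to 5.62 to 17.9 CPM in the HFD libraries. In both groups 5 of the 7 were detected and Ly6g and Ngp had no read. Replicate 22 had the highest oviduct epithelium (313 CPM) and red blood cell (99.4 CPM) marker sums of its group. The part of any of these cells in the Slc2a1 result was not tested. Against 16-week CD, where Slc2a1 ran from 75.6 to 202 CPM (median 124, n = 6), the log2 fold change of 0.85 (SE 0.31) did not pass the test (edgeR adjusted p = 0.363).

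In the diet comparisons Slc2a1 did not pass the test. The means were 73.6 ± 33.8 CPM (SD, n = 5) in 4-week CD and 83.8 ± 24.3 CPM (SD, n = 5) in 4-week HFD, with a log2 fold change of 0.14 (SE 0.28, edgeR adjusted p = 0.784). At 16 weeks the log2 fold change was -0.43 (SE 0.32, edgeR adjusted p = 0.387). Among the 4-week HFD libraries, replicates 3, 4 and 5, which had the highest Txnip, also had the highest Slc2a1, at 111, 91.7 and 96.6 CPM against 72.4 and 47.9 CPM in replicates 13 and 14. Exons of Slc2a1 share 105 bases with the antisense gene Gm12868.

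Slc2a8 (chromosome 2, 32972990 to 32982083, - strand) encodes GLUT8, a transporter kept mostly on internal membranes. In low weight gainers it was at 6.93, 4.67 and 6.38 CPM in replicates 21, 22 and 23, while the 7 libraries of 16-week HFD ran from 0 to 2.55 CPM (median 1.12) and held 20 reads in all. The groups did not overlap, as for 20.6% of all genes tested. The log2 fold change was 2.44 (SE 0.56, edgeR adjusted p = 0.00753), in a comparison that called 20.7% of all genes. None of the 7 HFD libraries reached the level that the filter on low counts asks for, so the gene entered this test only through the group where it was high, and the values are a description rather than support for a rise. The adjusted p was above 0.05 without replicate 21 (edgeR adjusted p = 0.0512) or replicate 23 (edgeR adjusted p = 0.0550) of that group. Against 16-week CD, which ran from 0 to 10.8 CPM (median 5.07, n = 6), the log2 fold change was 0.05 (SE 0.84, edgeR adjusted p = 0.991).

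For Slc2a8 the diet effects at both times could be set beside each other. At 4 weeks the means were 6.92 ± 1.60 CPM (SD, n = 5) in CD and 8.34 ± 2.25 CPM (SD, n = 5) in HFD, with a log2 fold change of 0.22 (SE 0.30, edgeR adjusted p = 0.681). At 16 weeks the gene was below the filter, with 165 reads in CD and 20 in HFD. The HFD mean of log2(CPM + 1) was lower by 1.23 (exact permutation test, two-sided, unadjusted p = 0.0699, adjusted p = 0.280). The difference between the diet effects was -2.53 (SE 0.82) on the log2 scale, which missed the threshold (edgeR adjusted p = 0.0691), and none of the 8 members open to a test was called, of which 6 passed the filter, against 3.66% of all genes. At an unadjusted edgeR p under 0.05 there were 3 (Arrdc4, Mlxip and Slc2a8), beside 23.4% of all genes, and DESeq2 called 1, Slc2a8, beside 9.52%. Slc2a8 passed the filter here through groups other than 16-week HFD, where it was low, so its values are a description. CD replicates 1 and 2 had the highest levels at 16 weeks, 9.61 and 10.8 CPM, and without both the difference was -1.58 (SE 0.80, edgeR adjusted p = 0.291).

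In the leptin comparison Slc2a8 was at 3.26, 1.53 and 2.02 CPM in 16 C replicates 1, 2 and 3, and at 3.06, 9.33, 6.16, 5.97 and 11.6 CPM in 16 L replicates 18, 19, 20, 21 and 23. Replicate 18 lay inside the saline range and the other 4 above it, while in RPM all 5 were above it. In RPM the median gene was also higher in 16 L, by 0.85 as log2(RPM + 1). Groups failed to overlap for 23.4% of all genes tested after TMM scaling, a share not computed in RPM. The log2 fold change was 1.88 (SE 0.66), or 1.61 above the median gene, and did not pass the test (edgeR adjusted p = 0.0907). Without replicate 18 it was 2.05 (edgeR adjusted p = 0.0141). The saline libraries held 0.909 to 2.24 RPM, under the filter's level of 3.33. Slc2a8 thus entered this test only through the leptin libraries, where it was high, and its values are a description. None of the 8 members open to a test was called in this comparison, of which 7 passed the filter, against 8.56% of all genes. At an unadjusted edgeR p under 0.05 there were 3 (Slc2a1, and Slc2a3 and Slc2a8, which passed the filter only through 16 L), beside 32.4% of all genes. DESeq2 called the same 3 after adjustment, beside 22.4% of all genes. Without replicate 18, 3 were called (Slc2a1, Slc2a8 and Mlxip) in a fit that called 41.8% of all genes.

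Slc2a3 (chromosome 6, 122727809 to 122801640, - strand) encodes GLUT3, a high-affinity transporter typical of neurons and blood cells. In 16 L it was at 69.6, 0.666, 10.3, 7.96 and 2.59 CPM in replicates 18, 19, 20, 21 and 23. In 16 C it was at 0, 1.15 and 0 CPM in replicates 1, 2 and 3. The highest value was that of the library with the most oviduct, red blood cell and stroma transcripts, and the lowest that of replicate 19, which had the fewest. The part of those cells in the result was not tested. The log2 fold change was 5.02 (SE 1.70, edgeR adjusted p = 0.0853), a size that depends on the prior count because 2 of the 3 saline libraries had no read. Slc2a3 passed the filter only through the leptin libraries, so this value is a description. Without replicate 18, Slc2a3 no longer passed the filter.

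Outside the leptin libraries Slc2a3 was at most 11.7 CPM, in low weight gainer replicate 23, the library with the highest neutrophil marker sum of the 34 (103 CPM). The next highest sums were those of 4-week CD replicate 8 (80.1 CPM) and low weight gainer replicate 21 (76.1 CPM), which had 2.93 and 3.47 CPM of Slc2a3. The part of neutrophils in these values was not tested. At 4 weeks Slc2a3 was below the filter, at 0.632, 1.14, 1.49, 2.93 and 2.38 CPM in CD replicates 1, 2, 7, 8 and 11 and at 0.600 to 0.855 CPM in the 5 HFD libraries. The HFD mean of log2(CPM + 1) was lower by 0.59 (exact permutation test, two-sided, unadjusted p = 0.0317, adjusted p = 0.0635). The smallest p these group sizes allow is 0.00794. The unadjusted p of 0.0317 was the lowest among 12 such tests of members below the filter. The group totals of 37 and 32 reads leave Slc2a3 close to the floor of 3 reads per library. In the 4-week comparison none of the 8 members open to a test was called, of which 6 passed the filter, against 4.26% of all genes. Mlxipl, which passed the filter only through the CD libraries, was the only 1 of them at an unadjusted edgeR p under 0.05 (24.3% of all genes). DESeq2 called 0 (11.0%). None of the 9 members was called by edgeR at 16 weeks, of which 5 passed the filter, and Mlxip was the only 1 at an unadjusted p under 0.05 (25.3% of all genes) or called by DESeq2 (9.72%). None was called in low weight gainers against 16-week CD either, where 7 passed and 0.00861% of all genes were called. In that comparison 2 members (Mlxip and Slc2a1) had an unadjusted edgeR p under 0.05 (11.2% of all genes), and DESeq2 called 0 (2.11%).

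**Figure D3:**
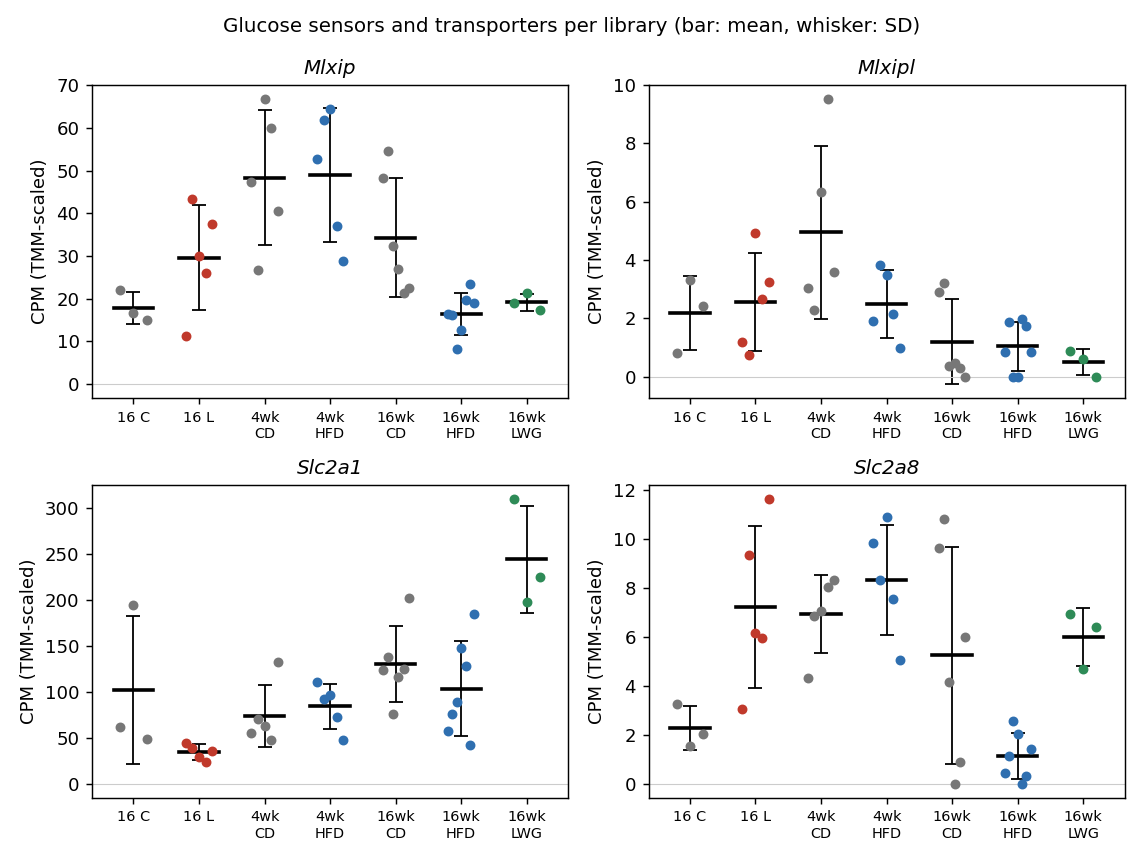
Levels of Mlxip, Mlxipl, Slc2a1 and Slc2a8 in CPM after TMM scaling (y axis) for the 34 libraries by group (x axis; LWG, low weight gainers), with 1 point per library, bars for the mean and whiskers for the SD. On this scale the 5 leptin libraries lie below the 3 saline libraries for Slc2a1, which they do not in RPM, and the 3 low weight gainers lie above the 7 libraries of 16-week HFD for Slc2a1 and Slc2a8. Over all genes tested, groups failed to overlap for 23.4% in the leptin comparison and 20.6% in low weight gainers against 16-week HFD.

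**Figure D4:**
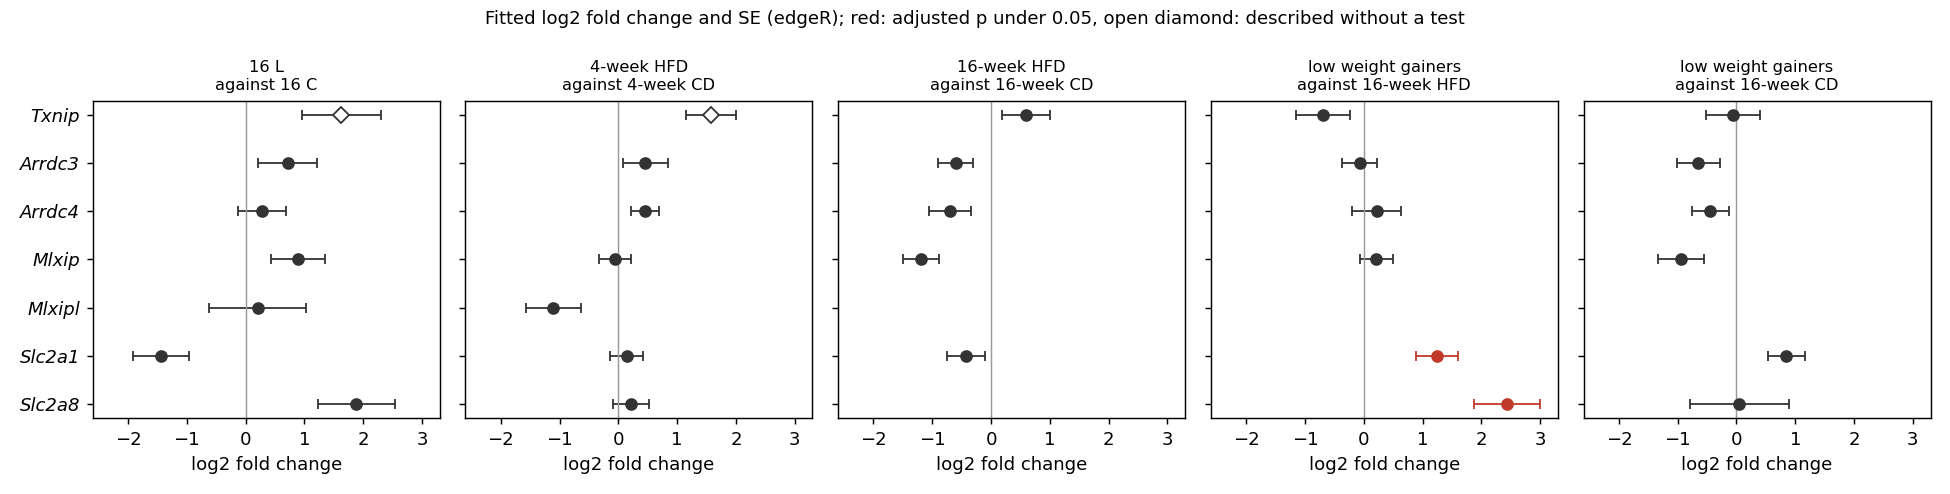
Fitted log2 fold change (x axis) with its SE for 7 members (y axis) in 5 comparisons, where members below the filter on low counts have no point. The 2 values in red, Slc2a1 and Slc2a8 in low weight gainers against 16-week HFD, had an edgeR adjusted p under 0.05, of which that of Slc2a8 is only a description because the gene passed the filter through the low weight gainers alone. Open diamonds are the values of Txnip that are described without a test.

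Genes that act beside the members were described through 9 lists with 75 genes in the table: other alpha-arrestins, the thioredoxin system, the MLX and MAX network, targets of the carbohydrate response, ubiquitin ligases of alpha-arrestins, AMPK subunits, other hexose transporters, transporter trafficking and glucose phosphorylation. In 16 L against 16 C, 6 of the 52 tested were called (11.5%, beside 8.56% of all genes), 4 upward and 2 downward, and the median log2 fold change of the 52 was 0.27, beside 0.27 over all genes. Of the 4, Hk1 and Vamp2 passed the filter only through the 16 L libraries, where they were high, so their values are a description. The hexokinases trap glucose in the cell after uptake. Hk2 was at 509 to 627 CPM in 16 C and 19.6 to 93.7 CPM in 16 L and fell by 3.17 on the log2 scale (SE 0.48, edgeR adjusted p = 0.0121). Hk1 was at 3.26 to 5.50 CPM in 16 C and 11.9 to 29.7 CPM in 16 L, and its log2 fold change was 2.58 (SE 0.47, edgeR adjusted p = 0.0187). For both hexokinases the groups did not overlap, as for 23.4% of all genes tested. Among the carbohydrate-response targets, of which 6 of 10 were tested, Fasn (fatty acid synthase) rose by 2.08 (SE 0.39) and Klf10, a transcriptional repressor, fell by 2.15 (SE 0.54). Among 14 tested trafficking genes, the kinase Akt2 rose by 1.71 (SE 0.34), and the vesicle protein Vamp2 had a log2 fold change of 2.56 (SE 0.67).

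In 4-week HFD against CD, 1 of the 54 tested pathway genes was called (1.85%, beside 4.26% of all genes). This was Mnt, a repressor that pairs with Max and Mlx, which fell from 23.6 ± 11.9 to 7.36 ± 2.59 CPM (SD, n = 5 each) with a log2 fold change of -1.72 (SE 0.35, edgeR adjusted p = 0.0215). edgeR called 0 of 49 in 16-week HFD against CD and 0 of 52 in low weight gainers against CD. At an unadjusted p under 0.05 there were 13 (26.5%, beside 25.3% of all genes) and 4 (7.69%, beside 11.2%), and DESeq2 called 4 (8.16%, beside 9.72%) and 1 (1.92%, beside 2.11%). For the difference between the diet effects, 1 of 57 was under the threshold (1.75%, beside 3.66% of all genes). This was Slc2a10 (GLUT10), which had means of 3.52 ± 1.27 CPM in 4-week CD, 4.37 ± 1.64 in 4-week HFD, 4.00 ± 1.99 in 16-week CD and 0.163 ± 0.325 in 16-week HFD. Its fitted difference of -4.22 (SE 0.83, edgeR adjusted p = 0.0149) depends on the prior count, since the median level in 16-week HFD was 0. Slc2a10 passed the filter through the other groups, where it was higher, so this value is a description.

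In low weight gainers against 16-week HFD, 14 of the 50 tested pathway genes were called, 10 upward and 4 downward (28%, beside 20.7% of all genes). Of these 12 passed the filter on their lower group alone, and 2 passed only through the group where they were high. Hk1 rose by 1.79 (SE 0.31), from 5.90 ± 1.53 to 19.9 ± 6.77 CPM, and the glucose phosphatase gene G6pc3 rose by 1.07 (SE 0.22). Among the trafficking genes, Aspscr1 (TUG, which tethers GLUT4 vesicles) rose by 1.65 (SE 0.29), Vamp2 by 1.47 (SE 0.37) and Akt2 by 1.14 (SE 0.27). In the same list, the vesicle aminopeptidase gene Lnpep fell by 0.82 (SE 0.21). In the MLX and MAX network, Max rose by 1.13 (SE 0.21) and Mga, which partners it, fell by 0.97 (SE 0.25). Further calls were Arrdc1 (0.82, SE 0.24), the ubiquitin ligase gene Wwp2 (0.65, SE 0.21), the mitochondrial thioredoxin reductase gene Txnrd2 (0.97, SE 0.23), all upward. The other 2 are given as a description: the sodium-glucose transporter gene Slc5a2, with no HFD library over the filter's level, had 1.96 (SE 0.62), and the AMPK catalytic subunit gene Prkaa2, with no low weight gainer over it, had -1.42 (SE 0.48). All these are log2 fold changes with an edgeR adjusted p of at most 0.0430, a bound that includes Slc5a2 and Prkaa2, which are only described.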

How the data were processed

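RNA-seq libraries were made by the authors from about 50 cumulus cells each (oligo-dT capture by Smart-seq2, then Nextera XT), without strand marks or molecular identifiers. The submitters' processing notes name Trim Galore 0.4.2, HISAT2 2.0.5 and build GRCm38, while the counting program is not given in the sources used here. The deposited values are raw read counts per gene for 34 libraries, and the table had 0 columns of other samples. Fold changes and adjusted p-values came from edgeR 4.0.16 in R 4.3.3 (quasi-likelihood test, TMM, filterByExpr, Benjamini-Hochberg over all genes tested, threshold 0.05), fitted per comparison on its own groups. The reported SE is the fitted log2 fold change divided by the square root of F. Levels are CPM, and members below the filter were compared by exact permutation of mean log2(CPM + 1), with Benjamini-Hochberg adjustment over those members within a comparison. DESeq2 1.42.0, other scalings and filters, 1 fit over all 34 libraries, and leaving out each library were alternatives. The fit was tested on simulated data. The members and gene lists were chosen with earlier results of these data known. Named genes were all 9 members, up to 3 called genes per list and direction with the largest fold, and the 5 genes of highest rho with Txnip. Of 147 listed symbols, 141 matched directly and 4 through an older symbol. Gene lengths came from GENCODE M21 and promoters from RefSeq. Each symbol's first entry was used. The values of 1 called gene of the lists are not reported here.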

Additional observations from a re-analysis of the deposited data

Results flagged for a closer look

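Among 43 combinations of a member and a group of 4 to 7 libraries, 5 held a library farther from the rest than Dixon's criterion allows. Chance alone marks about 1 group in 20 where values are normally distributed, which was not checked for these CPM. That rate does not hold for the 3 that concern Slc2a4, since with at most 1 other library above 0 a library with 1 to 3 reads is set apart almost by construction. Slc2a1 in 4-week CD replicate 11 was at 132 CPM (776 reads), with 47.6 to 70.1 CPM in the other 4 libraries. Slc2a3 in 16 L replicate 18 was at 69.6 CPM (409 reads), with 0.666 to 10.3 CPM in the other 4. The same library held 3 reads of Slc2a4 (0.510 CPM), and the other 4 held none. Slc2a4 in 4-week HFD replicate 3 was at 0.120 CPM (1 read), with none in the others. Slc2a4 in 16-week CD replicate 1 was at 0.447 CPM (2 reads), with at most 0.129 CPM in the others.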

How the results depend on the processing

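RLE size factors and the fit without a filter kept the number of members called in each of the 6 comparisons. In 16 L against 16 C, where 0 were called, the number was 3 with DESeq2, 3 with scaling by totals, 2 in the fit of all 34 libraries and 0 to 3 without 1 library. In the main fit of that comparison, Slc2a3 and Slc2a8 passed the filter only through 16 L. At 16 weeks it was 1 with DESeq2, 1 with scaling by totals, 2 in the fit of all 34 libraries and 0 to 1 without 1 library. For the difference between diet effects it was 1 with DESeq2 (Slc2a8, only through its higher groups), 1 with scaling by totals and 0 to 1 without 1 library. In low weight gainers against 16-week HFD, the 2 members under the threshold (Slc2a8 only through its higher group) became 1 with at least 10 counts in every library and 0 to 2 without 1 library. Txnip had a log2 fold change of 2.31 in 16 L against 16 C with scaling by totals, and of 1.04 to 1.86 without 1 library. At 4 weeks it was 1.35 to 1.78 without 1 library.

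The direction turned for values near 0. Arrdc3 in low weight gainers against HFD was 0.12 with scaling by totals, 0.0089 with at least 10 counts and -0.28 to 0.10 without 1 library. Against CD, Slc2a8 was -0.32 with scaling by totals and -0.19 to 0.41 without 1 library, and Txnip was -0.45 to 0.28 without 1 library and 0.52 without both 16-week CD replicates 1 and 2, an alternative chosen after seeing the data. Without 1 library, Mlxip at 4 weeks ran from -0.20 to 0.083 and Mlxipl in 16 L against 16 C from -0.083 to 0.68. Mlxipl at 16 weeks was -0.0054 with log2(CPM + 0.1). In RPM without TMM scaling, 9 mean levels moved by more than 1 SD, of Txnip, Arrdc3, Arrdc4, Mlxip and Slc2a8 in 16 C, 4-week CD or low weight gainers. The causes were not tested.

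Counts over all genes moved by more than 1.5 times. DESeq2 called 2629 genes in 16 L against 16 C (edgeR 1004), 1286 at 4 weeks (499), 1056 at 16 weeks (3), 245 in low weight gainers against CD (1) and 1165 for the difference between diet effects (448). Without 1 library, edgeR called 30 to 4635, 8 to 1700, 1 to 2222, 0 to 1 and 69 to 1685 genes in these comparisons, and 596 to 2732 (2330 with all) in low weight gainers against HFD. Scaling by totals called 4035, 662, 1646, 0 and 873 genes in the order above, the fit of all libraries 4384, 69, 1258, 7 and 157 (487 in low weight gainers against HFD), and the fit without a filter 504, 412, 13, 1 and 303. No paired analysis was possible for the 5 comparisons of 2 groups because their libraries share no replicate number. For the difference between diet effects, 4 pairs of one diet share a number at both times. Their correlations of deviations were -0.28, -0.03 and -0.24 (CD replicates 1, 2 and 8) and 0.12 (HFD replicate 14). With so few pairs, these values cannot settle whether the libraries share more than a number. A fit with a replicate block, chosen after seeing the data and with 4 residual degrees of freedom, called 0 members and 10 of all genes, and Mlxipl turned to -0.35. Members near the floor of 3 reads cannot show differences at this depth.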

Other observations

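The 4 genes beside the members whose exons overlap a member on the other strand were Gm15441 (Txnip, 606 shared bases), Gm15747 (Mlxip, 267), Gm43500 (Mlxipl, 235) and Gm12868 (Slc2a1, 105). In 16-week CD, Gm15441 was at 10.3 and 11.7 CPM in replicates 1 and 2, the libraries with the highest Txnip and with the largest TMM factors of that group, and at 1.36 to 3.99 CPM in the other 4. Hk2 was at 565 ± 59.3 CPM (SD, n = 3) in 16 C, 415 ± 114 CPM (SD, n = 3) in low weight gainers, 408 ± 134 CPM (SD, n = 7) in 16-week HFD, 241 ± 200.0 CPM (SD, n = 6) in 16-week CD, 113 ± 40.2 CPM (SD, n = 5) in 4-week CD, 74.9 ± 16.6 CPM (SD, n = 5) in 4-week HFD and 56.9 ± 28.2 CPM (SD, n = 5) in 16 L, a description across protocols that were not compared by a test.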
